A study of Homo sapiens with 12 samples.

Results

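The 42 genes described here carry out DNA replication and mitosis in dividing cells, and they were taken by gene name from a table of 25733 genes measured in HCT116 cells, a long-established line from a human colorectal carcinoma. Of these genes, 20 act at the G1/S transition and in S phase and 22 act in G2 and mitosis. The study asked how ammonia, given as NH4Cl, alters the transcriptional response of colon cancer cells to TGF-β, a growth factor that restrains the division of normal epithelium. Bulk RNA was sequenced from 12 libraries in 4 groups of 3. One group was left untreated as the control, and another had 200 pM TGF-β for 1 h. A further group had 10 mM NH4Cl for 24 h, and the last had 10 mM NH4Cl for 23 h and then TGF-β at 200 pM for another 1 h. The study's methods give these times and the TGF-β dose for the treatment of its cell lines in general, and the labels name only the agents. The replicates are not stated to be separate cultures, so the p-values measure the spread between these libraries, which may be technical.

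Expression was given as FPKM, the reads on a gene divided by its length and by the depth of the library, so that levels can be compared between genes. Reads recovered from these values amounted to 14807630 to 18191998 per library, with a median of 15484798. The median level was 19.6 FPKM for the G1/S genes and 21.7 FPKM for the G2/M genes. PCNA was the most abundant G1/S gene at a mean of 172 FPKM over all libraries, and UBE2C led the G2/M genes at 90.5 FPKM. The least abundant G2/M gene was CENPE, at 4.59 FPKM. CCNE2, which encodes cyclin E2, had a mean of 0.506 FPKM and as few as 18 reads in a library. It fell under the minimum mean of 1 FPKM and was not tested, which left 41 of the 42 genes, 19 of G1/S and 22 of G2/M. The tested genes had at least 73 reads in every library.

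Marker genes were those of an epithelial line, as the labels state. Among 7 epithelial markers, 6 had a mean of at least 1 FPKM, led by the keratins KRT18 at 876 FPKM and KRT8 at 860 FPKM, with the adhesion protein EPCAM at 254 FPKM. KRT20, a keratin of differentiated colon epithelium, was low at 0.190 FPKM. The 5 fibroblast markers summed to 7.87 to 10.9 FPKM per library, most of it from LUM at 7.79 FPKM, with COL1A1 at 1.68 FPKM, while the collagen genes COL1A2 and COL3A1 were near 0 at 0.0065 and 0.0074 FPKM. LYZ was the highest of the leukocyte markers found at 1.12 FPKM, and CD3E had a mean of 0.158 FPKM. The symbols PTPRC and CD68 were not found among the 25733 genes, so these markers could not be read. Of the endothelial markers, VWF reached 3.01 FPKM and PECAM1 stood at 0.0348 FPKM.

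Replicate 3 stood apart from replicates 1 and 2 in every group, and the G1/S genes were among those that differed. A chi-square statistic that equals 1 per gene under pure counting error came to 1.71 to 4.65 for replicate 1 against replicate 2, and to 22.9 to 32.8 for replicate 3 against each of those. The share of mitochondrial reads was 4.50% to 5.12% in replicate 3, whereas replicates 1 and 2 had 2.46% to 3.18%. The labels do not say what a replicate number stands for.

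In replicate 3 the log2 level of the G1/S genes was lower than the mean of replicates 1 and 2 by a median difference of −0.59, with a range of −0.89 for MCM4 to 0.04 for CDT1. The median was 0.09 for the G2/M genes, with a range of −0.29 for CENPF to 0.27 for KIF20A, and −0.01 for all 12341 genes tested. Replicate 3 was below the mean of replicates 1 and 2 in all 4 groups for 17 of the 19 G1/S genes and for 4 of the 22 G2/M genes, against 32.2% of all genes. The summed FPKM of the G1/S genes in untreated replicates 1, 2 and 3 was 876, 882 and 586, while that of the G2/M genes was 706, 692 and 727. So the difference between replicates was larger for most G1/S genes than the NH4Cl differences described here, and each NH4Cl library was also compared with the NH4Cl-free library of its own replicate number. The part of the replicate 3 difference in the NH4Cl results was not tested. For list counts, list medians and PCNA, results are also given without replicate 3.

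**Figure D1:**
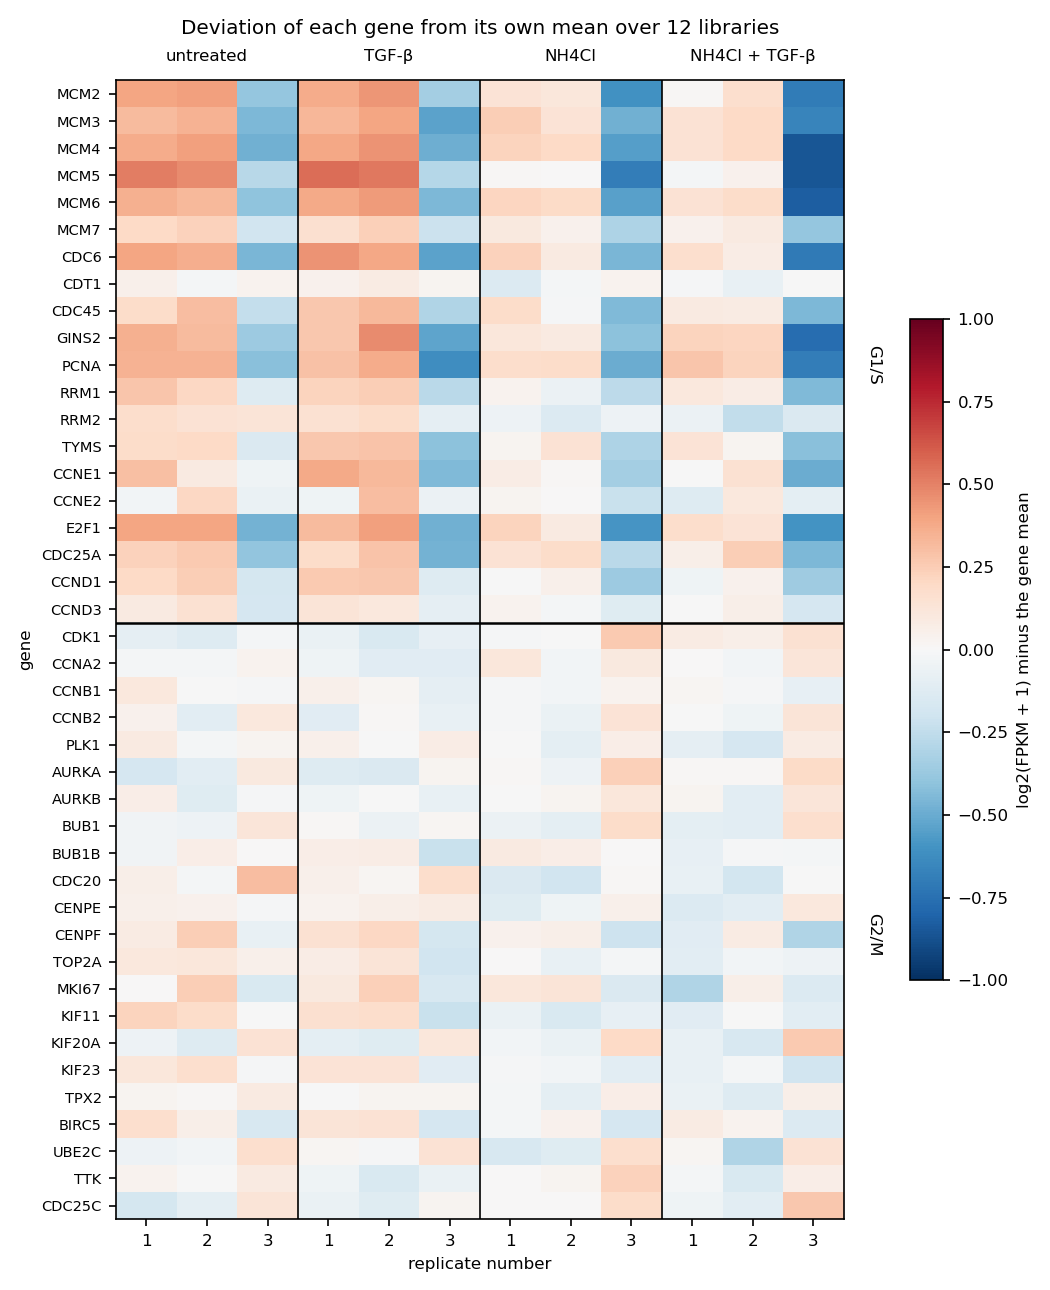
Deviation of log2(FPKM + 1) from the mean over 12 libraries, by gene (vertical axis) and library (horizontal axis, 3 replicates in each of 4 groups), with blue for lower and red for higher. Most G1/S genes are blue in replicate 3 of every group, and few of the G2/M genes are.

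Replication origins are licensed in G1, when the origin recognition complex with CDC6 and CDT1 loads the ring-shaped MCM helicase onto DNA, and the helicase is switched on in S phase by CDC45 and the GINS complex. Cyclin D and cyclin E kinases release E2F transcription factors from the RB protein, and E2F drives the genes of replication. Mitotic genes follow later in the cycle, when the MuvB complex with MYBL2 and FOXM1 acts on promoters that hold the element called CHR, often near CCAAT boxes.

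Promoters of both lists were searched for these elements, and whether an element relates to the NH4Cl differences was not tested. Promoter windows, 250 bases before and 50 after the start, were taken from a table of RefSeq promoters (GRCh38.p14) and matched by symbol for 33 of the 42 genes, and in that table MCM4, MCM5, CCNE2, CCND1, AURKA, TPX2, BIRC5, UBE2C and TTK had no matching entry. An E2F motif, searched on both strands as TTTCCCGC, TTTCGCGC, TTTGCCGC or TTTGGCGC, was found in 11 of 16 G1/S promoters (68.8%) and 1 of 17 G2/M promoters (5.88%), against 3.33% of 27305 promoters. Some forms overlap when read on opposite strands, as in MCM6. The windows below show 60 bases of the promoters of 4 G1/S genes, beginning 200 (MCM3), 112 (MCM6), 85 (PCNA) and 70 (CDC25A) bases before the start, on the strand of the gene from 5′ to 3′, with E2F motifs of either strand in capitals. They lie at chr6:52284883-52284942 on the minus strand for MCM3, chr2:135876496-135876555 on the minus strand for MCM6, chr20:5126648-5126707 on the minus strand for PCNA and chr3:48188428-48188487 on the minus strand for CDC25A, and no exon of the annotation covers them.
MCM3: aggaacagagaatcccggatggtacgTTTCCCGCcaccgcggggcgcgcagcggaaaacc
MCM6: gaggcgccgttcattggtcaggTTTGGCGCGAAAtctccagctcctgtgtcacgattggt
PCNA: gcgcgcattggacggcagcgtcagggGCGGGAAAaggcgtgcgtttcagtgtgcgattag
CDC25A: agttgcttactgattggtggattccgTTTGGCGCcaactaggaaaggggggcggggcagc

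The CHR element, searched on both strands as TTTGAA or TTCGAA, was found in 11 of 17 G2/M promoters (64.7%) and 2 of 16 G1/S promoters (12.5%), against 16.6% of all promoters. CCAAT occurred in 82.4% of the G2/M and 68.8% of the G1/S promoters, against 35.7% of all. Among G1/S genes past the threshold with NH4Cl and the other G1/S genes, E2F was found in 6 of 9 and 5 of 7, CHR in 2 of 9 and 0 of 7, and CCAAT in 8 of 9 and 3 of 7, numbers too small to compare. RRM2 had none of these E2F letters in its window and 3 CCAAT boxes. A match describes letters in a window and not a bound site. The next windows show 60 bases of the promoters of 5 G2/M genes in the same way, beginning 188 (CDK1), 92 (CDC20), 200 (TOP2A), 65 (MKI67) and 60 (KIF11) bases before the start, with CHR letters of either strand in capitals. They lie at chr10:60778143-60778202 on the plus strand for CDK1, chr1:43358889-43358948 on the plus strand for CDC20, chr17:40418037-40418096 on the minus strand for TOP2A, chr10:128126429-128126488 on the minus strand for MKI67 and chr10:92593070-92593129 on the plus strand for KIF11, again outside annotated exons.
CDK1: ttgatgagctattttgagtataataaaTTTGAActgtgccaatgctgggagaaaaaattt
CDC20: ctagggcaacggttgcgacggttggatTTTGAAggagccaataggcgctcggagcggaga
TOP2A: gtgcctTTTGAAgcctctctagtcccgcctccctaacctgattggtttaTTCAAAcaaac
MKI67: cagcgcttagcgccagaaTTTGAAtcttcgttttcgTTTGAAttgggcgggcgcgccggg
KIF11: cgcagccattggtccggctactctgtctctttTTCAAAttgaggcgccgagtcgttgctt

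With NH4Cl, the G1/S genes were lower nearly throughout, whereas the G2/M genes were divided between lower and higher values. Differences are given as log2(FPKM + 1) with NH4Cl minus without it, a scale that understates the change of genes at low FPKM. Averaged over both TGF-β states, the median difference was −0.18 for the 19 G1/S genes and −0.04 for the 22 G2/M genes, against −0.0006 for all genes tested. The G1/S median was −0.15 with NH4Cl against untreated cells and −0.18 with both treatments against TGF-β. These contrasts share no library, and 19 of 19 G1/S genes were below 0 in both, against 38.8% of all genes. Among the G2/M genes, 13 were below 0 in both contrasts, 8 were above 0 in both, and BUB1B differed in sign. Fewer cells in a phase of the cycle and less RNA per cell cannot be told apart in bulk RNA.

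Few of these differences passed the test when the replicate number was left out of the model. In limma without a block, 0 of 41 genes passed an adjusted p of 0.05 with NH4Cl against untreated cells, where 0.381% of all genes did, and 0 with both treatments against TGF-β, where 1.03% did. At an unadjusted p under 0.05 there were 3 and 2, beside 1333 and 1642 of all 12341 genes, a smaller share than that of all genes. In the average over both TGF-β states 1 gene passed, RRM2, which fell, and 6.14% of all genes did. With both treatments against untreated cells limma found 0 genes, beside 0.948% of all genes, and 3 at an unadjusted p under 0.05, beside 1618 of all genes.

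More genes passed when the replicate number was a block, that is when libraries were paired by it. Replicate 3 libraries deviated together in every group, and this paired model removes the replicate 3 difference from the error. Whether replicates 1 and 2 pair by number was not tested apart from that difference. With NH4Cl against untreated cells, limma found 8 genes lower and 1 higher, beside 6.14% and 7.42% of all genes. For both treatments against TGF-β it found 14 lower and 2 higher, beside 8.48% and 10.3% of all genes. These results divide by list. The G1/S genes gave 7 and 11 of the lower calls and none of the higher ones in these contrasts, since every G1/S difference was below 0.

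In the average over both TGF-β states, 16 genes were lower and 3 higher in the paired model, beside 15% and 16.1% of all genes. Of the lower genes, 12 were among the 19 G1/S genes: CCND1, CDC45, CDC6, E2F1, MCM2, MCM3, MCM4, MCM5, MCM6, MCM7, RRM1 and RRM2. From the 22 G2/M genes, CDC20, CENPF, KIF11 and KIF23 fell and AURKA, CCNA2 and CDK1 rose, counts near the shares of all genes. Both treatments against untreated cells gave 14 lower and 2 higher genes, of which 11 lower genes were of G1/S, beside 7.77% and 10.7% of all genes. That contrast shares its untreated libraries with the NH4Cl contrast. The genes that passed both in NH4Cl against untreated cells and in both treatments against TGF-β were CCND1, E2F1, MCM2, MCM5, MCM7, RRM2 and CDC20, which fell, and AURKA, which rose.

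The matched pairs give the same division without a model. In all 6 pairs of NH4Cl and NH4Cl-free libraries of one replicate number, 16 of 19 G1/S genes were lower, all but CCND3, CDC25A and CDT1, beside 15.5% of all genes. The G2/M genes had 3 lower and 3 higher in all 6 pairs, beside 15.5% and 15.7% of all genes. In replicates 1, 2 and 3 the median G1/S difference averaged over both TGF-β states was −0.15, −0.21 and −0.14. The G2/M median was −0.06 and −0.05 in replicates 1 and 2 and 0.04 in replicate 3. Replicate 3 with TGF-β stood out here, with a G2/M median of 0.12 and 3 of 22 genes below 0. Over the 4 pairs of replicates 1 and 2, a choice made after seeing the data, 18 G1/S genes and 12 G2/M genes were lower in every pair, beside 2839 of all 12341 genes. In the same 4 pairs 3 G2/M genes were higher, beside 2719 of all genes.

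**Figure D2:**
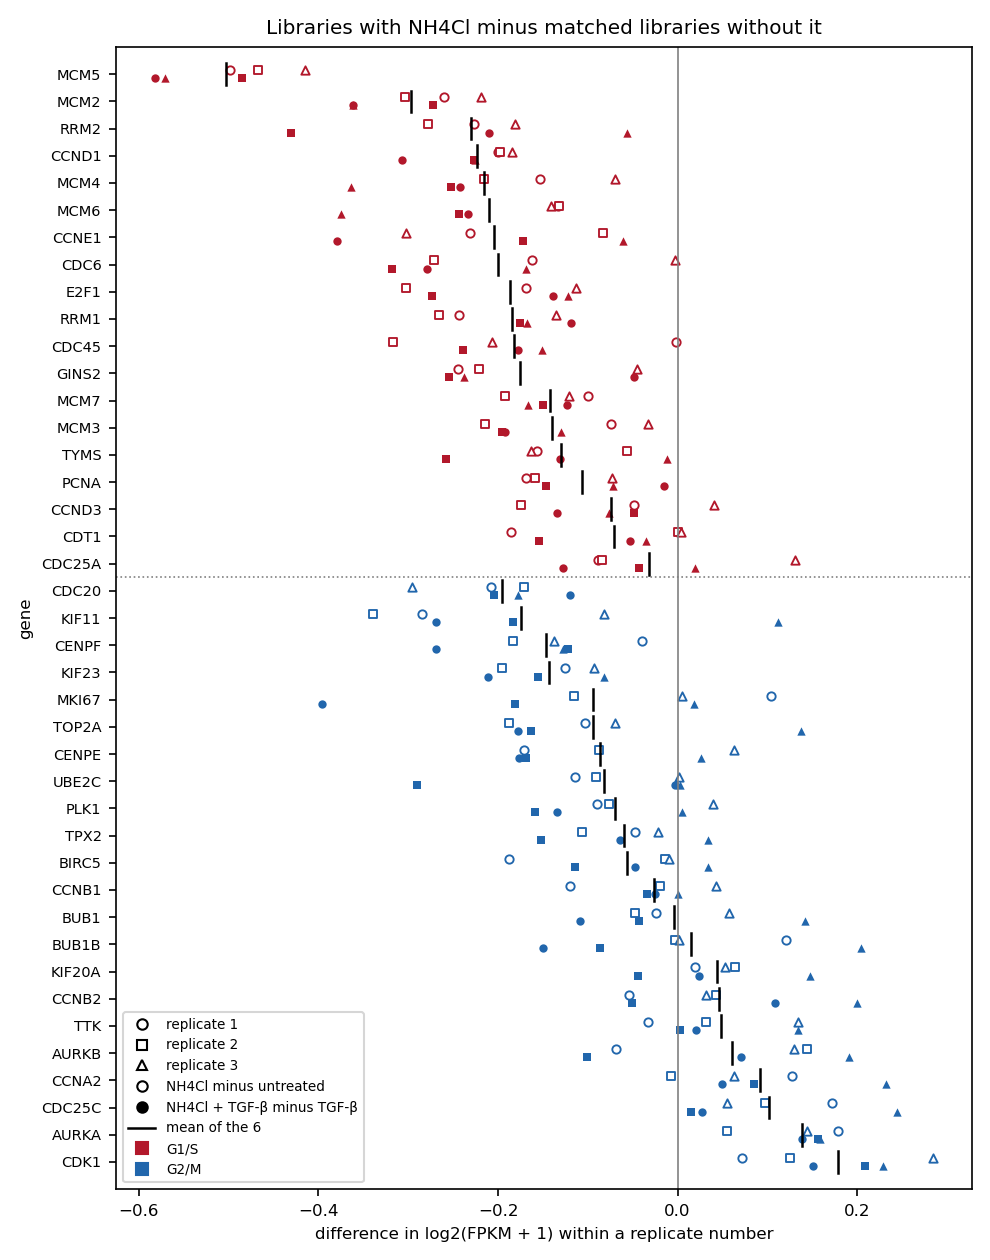
Difference in log2(FPKM + 1) between each library with NH4Cl and the library without it of the same replicate number (horizontal axis) for 41 genes (vertical axis), with symbols for replicates, open for NH4Cl minus untreated and filled for both treatments minus TGF-β, and a bar for the mean. Of the G1/S genes in red, 16 have all 6 points below 0, and the G2/M genes in blue spread to both sides.

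The MCM helicase, which unwinds DNA ahead of the replication fork, fell in all of its 6 subunits in the paired model, beside 15% of all genes. The median difference of the subunits was −0.21. MCM5 showed the largest difference of all 41 genes. Differences of single genes are averages over both TGF-β states unless a contrast is named. Values are given in the order of replicates 1, 2 and 3, with gene positions from GENCODE 29 on GRCh38. MCM5 (ENSG00000100297, chr22:35400063-35425430, plus strand) was at 16.2, 15.8 and 8.95 FPKM in untreated libraries, 16.8, 16.4 and 8.90 FPKM with TGF-β, 11.2, 11.1 and 6.46 FPKM with NH4Cl and 10.9, 11.4 and 5.67 FPKM with both, from 685 to 2288 reads. Every NH4Cl library lay below its match, and replicates 1 and 2 of the NH4Cl groups lay below those of the other groups without overlap. Its level fell by 0.50 on the log2 scale (SE 0.031, adjusted p = 7.79e-06 in limma with the replicate block). Without the block the SE was 0.234 and limma gave an adjusted p = 0.252.

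MCM2 (ENSG00000073111, chr3:127598223-127622436, plus strand) was at 36.2, 36.7 and 20.6 FPKM in untreated libraries, 35.6, 37.3 and 21.4 FPKM with TGF-β, 30.1, 29.5 and 17.6 FPKM with NH4Cl and 27.5, 30.7 and 16.4 FPKM with both. It was again lower in 6 of 6 pairs, with overlap between groups only through replicate 3. The fall was −0.30 (SE 0.027, adjusted p = 6.73e-05 in limma with the block). Exons of TPRA1 and AC023593.1 on the opposite strand cover 23.6% of the exon bases of MCM2, and whether reads were counted by strand is not stated. MCM4 (ENSG00000104738) was at 39.00, 40.1 and 21.1 FPKM untreated, 39.3, 41.3 and 20.99 FPKM with TGF-β, 34.98, 34.4 and 20.03 FPKM with NH4Cl and 33.1, 34.5 and 16.1 FPKM with both. The lowest of these is replicate 3 with both treatments. MCM6 (ENSG00000076003, chr2:135839626-135876426, minus strand) followed the same order, at 38.95, 38.1 and 22.7 FPKM untreated, 39.8, 41.03 and 21.9 FPKM with TGF-β, 35.4, 34.7 and 20.5 FPKM with NH4Cl and 33.7, 34.5 and 16.7 FPKM with both.

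Both genes were lower in 6 of 6 pairs, by −0.22 for MCM4 (SE 0.035, adjusted p = 0.00154 in limma with the block) and −0.21 for MCM6 (SE 0.038, adjusted p = 0.00256). In replicate 3 their differences were larger in the presence of TGF-β than in its absence, at −0.36 against −0.07 for MCM4 and −0.37 against −0.14 for MCM6, values of single pairs with no test. MCM3 and MCM7, the remaining subunits, fell by 0.14 and 0.14 in the paired model. MCM7 was the most abundant subunit, with 176 ± 27.4 FPKM untreated (SD, n = 3) and 160.1 ± 23.7 FPKM with NH4Cl.

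**Figure D3:**
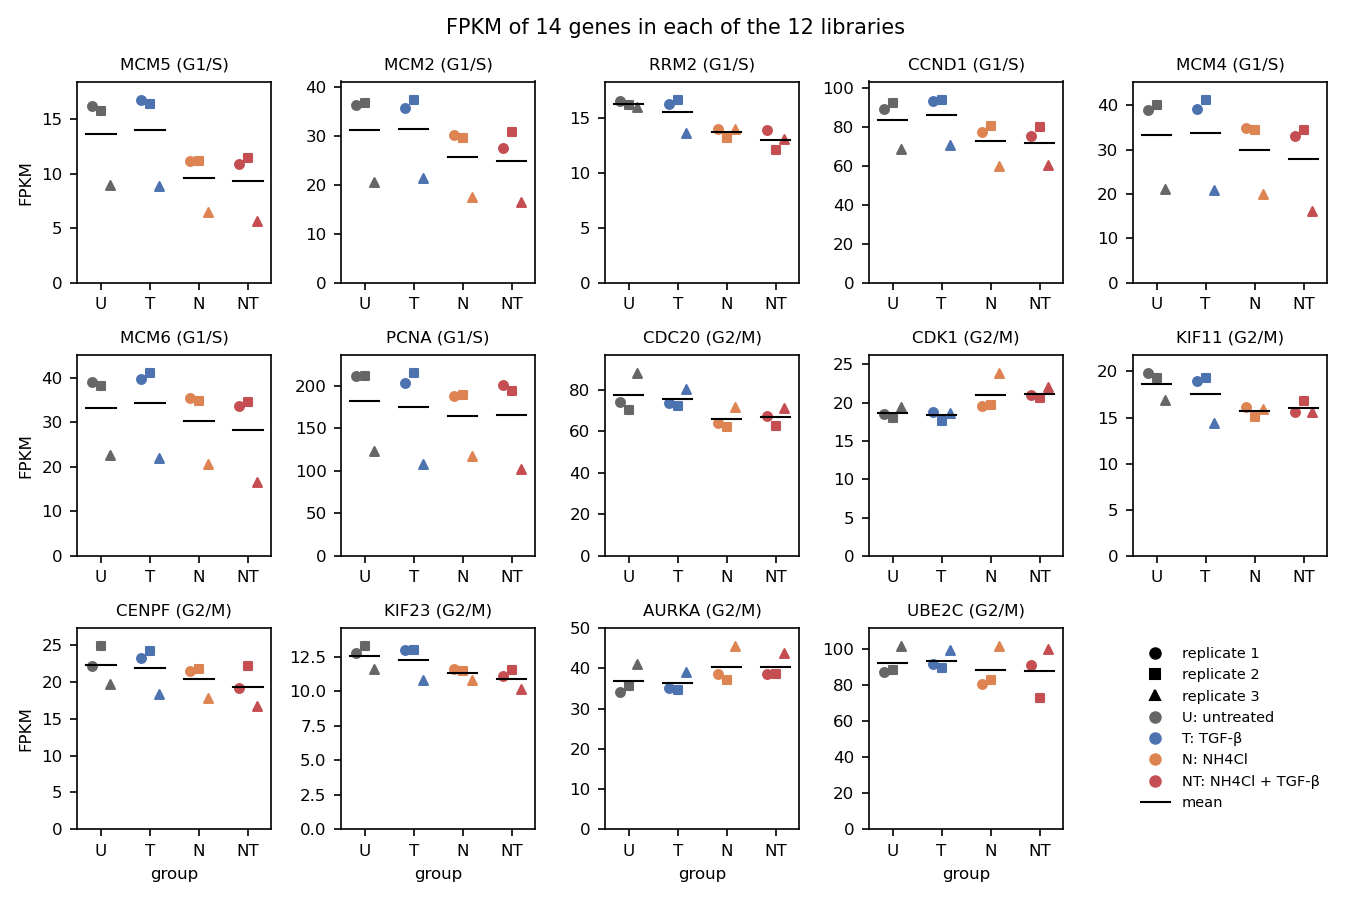
FPKM (vertical axes, from 0) of 14 genes in each library by group (horizontal axes: U untreated, T TGF-β, N NH4Cl, NT both), with symbols for replicates and a bar for the mean of 3. Replicate 3 is the lowest point of every group for MCM5, MCM2, CCND1, MCM4, MCM6 and PCNA, and for the G2/M genes CENPF and KIF23.

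Among the genes that load and activate the helicase, CDC6 and CDC45 fell. CDC6, which loads the helicase, fell by 0.20 in the paired model (SE 0.044, adjusted p = 0.00739 in limma) in the average over both TGF-β states. With NH4Cl against untreated cells its difference of −0.15 did not pass (adjusted p = 0.158 in limma with the block). Its partner CDT1 did not pass, at −0.07 (adjusted p = 0.124 in limma with the block), and was lower in 4 of 6 pairs. CDT1 was also the G1/S gene whose level in replicate 3 was the nearest to replicates 1 and 2. CDC45 fell by 0.18 (adjusted p = 0.00692 in limma with the block), and GINS2, a GINS subunit, had a difference of −0.18 that did not pass (adjusted p = 0.0652).

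PCNA (ENSG00000132646, chr20:5114953-5126626, minus strand), the sliding clamp that holds polymerases on DNA, was at 212, 211 and 124 FPKM in untreated libraries, 203, 215 and 108 FPKM with TGF-β, 188, 189 and 118 FPKM with NH4Cl and 201, 194 and 103 FPKM with both. Its replicate 3 libraries were far below the others in each group, so the groups overlapped. Although lower in 6 of 6 pairs, its difference of −0.11 did not pass (SE 0.041, adjusted p = 0.0752 in limma with the block). With replicates 1 and 2 alone it was −0.12 and passed (adjusted p = 0.0262 in limma with the block). It also passed without TGF-β replicate 3 (adjusted p = 0.0385), NH4Cl replicate 3 (adjusted p = 0.0156) or replicate 1 of both treatments (adjusted p = 0.0498).

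Ribonucleotide reductase, which makes the deoxyribonucleotides for replication, fell in both subunits. RRM2 (ENSG00000171848, chr2:10120698-10131419, plus strand), the regulated small subunit, was at 16.5, 16.2 and 15.97 FPKM untreated, 16.3, 16.6 and 13.6 FPKM with TGF-β, 13.96, 13.2 and 13.97 FPKM with NH4Cl and 13.9, 12.1 and 13.1 FPKM with both. The NH4Cl libraries did not overlap the untreated ones, while TGF-β replicate 3 reached into the range with both treatments, and replicate 3 of RRM2 lay close to the others, by a mean difference of −0.06. RRM2 fell by 0.23 (SE 0.046, adjusted p = 0.00448 in limma with the block and adjusted p = 0.0339 without it). It was the one gene of the 41 to pass without the block, and the count without the block was 0 when any of 9 single libraries was left out, that is all but untreated replicate 3, TGF-β replicate 3 and replicate 1 of both treatments. A long noncoding gene, AC007240.1, shares 20.2% of its exon bases on the same strand. RRM1, the large subunit, fell by 0.18 (adjusted p = 0.00725 in limma with the block). Thymidylate synthase, TYMS, had a difference of −0.13 that did not pass (adjusted p = 0.0828), and 46.6% of its exon bases overlap ENOSF1 and TYMSOS on the opposite strand, so its value is uncertain.

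Among the regulators of G1 and S entry, cyclin D1 and E2F1 passed and the others did not. CCND1 (ENSG00000110092, chr11:69641087-69654474, plus strand), which encodes cyclin D1, was at 89.3, 92.2 and 68.5 FPKM untreated, 93.2, 93.9 and 70.9 FPKM with TGF-β, 77.6, 80.3 and 60.1 FPKM with NH4Cl and 75.2, 80.1 and 60.5 FPKM with both. Its 6 pair differences kept to a narrow range, −0.31 to −0.18, and it fell by 0.22 (SE 0.02, adjusted p = 5.95e-05 in limma with the block). Exons of LTO1 on the opposite strand cover 10.3% of its exon bases. E2F1, the activating transcription factor, fell by 0.19 (adjusted p = 0.00251 in limma with the block), from 28.7 ± 9.11 FPKM untreated to 24.7 ± 7.06 FPKM with NH4Cl (SD, n = 3). Cyclin E1 was low, with 3.39 ± 0.532 FPKM untreated and 2.82 ± 0.565 FPKM with NH4Cl (SD, n = 3), and its difference of −0.20 did not pass (SE 0.077, adjusted p = 0.0708 in limma with the block). CCND3, for cyclin D3, and CDC25A, a phosphatase that activates CDK2, were near 0 at −0.07 and −0.03. CCNE2, not tested, had 0.543 ± 0.162 FPKM untreated and 0.438 ± 0.135 FPKM with NH4Cl (SD, n = 3), with 37.1% of its exon bases shared with genes on the opposite strand.

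The G2/M genes included the only members that rose. Of the 8 mitotic kinases, cyclins and CDC25C, 3 rose in limma with the block and the rest did not pass, with a median difference of 0.08, beside 16.1% of all genes higher and 15% lower, and none of them passed without it. CDK1 (ENSG00000170312, chr10:60778331-60794852, plus strand), the kinase that drives entry into mitosis, was at 18.5, 17.98 and 19.4 FPKM untreated, 18.8, 17.7 and 18.6 FPKM with TGF-β, 19.5, 19.7 and 23.9 FPKM with NH4Cl and 20.9, 20.6 and 22.01 FPKM with both. All 6 libraries with NH4Cl lay above all 6 without it. CDK1 rose by 0.18 (SE 0.035, adjusted p = 0.00431 in limma with the block and adjusted p = 0.0789 without it).

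AURKA (ENSG00000087586, chr20:56369389-56392337, minus strand), the kinase of spindle poles, was at 34.1, 35.6 and 41.1 FPKM untreated, 35.02, 34.6 and 39.2 FPKM with TGF-β, 38.7, 37.1 and 45.5 FPKM with NH4Cl and 38.7, 38.7 and 43.8 FPKM with both. Replicate 3 was here the highest of each group, and every NH4Cl library was above its match. AURKA rose by 0.14 (SE 0.025, adjusted p = 0.00255 in limma with the block). Cyclin A2, CCNA2, rose by 0.09 (adjusted p = 0.0372 in limma with the block) and was higher in 5 of 6 pairs. CDC25C, the phosphatase that activates CDK1, was higher in 6 of 6 pairs but did not pass, at 0.10 (adjusted p = 0.0772). The cyclins B, at −0.03 for CCNB1 and 0.05 for CCNB2, and the kinases PLK1, at −0.07, and AURKB, at 0.06, did not pass. CCNB1 held 68.8 ± 3.30 FPKM untreated and 67.2 ± 1.47 FPKM with NH4Cl (SD, n = 3), so the cyclin partners of CDK1 did not all share its rise.

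CDC20, the activator of the anaphase-promoting complex, moved the other way. CDC20 (ENSG00000117399, chr1:43358955-43363203, plus strand) was at 74.2, 70.04 and 88.1 FPKM untreated, 73.5, 72.02 and 80.5 FPKM with TGF-β, 64.1, 62.1 and 71.6 FPKM with NH4Cl and 67.6, 62.4 and 71.03 FPKM with both. The NH4Cl libraries lay below their matches in 6 of 6 pairs, although replicate 3, the highest of each group, made the untreated and NH4Cl ranges overlap. Its level fell by 0.20 (SE 0.027, adjusted p = 6.16e-04 in limma with the block). UBE2C (ENSG00000175063, chr20:45812576-45816957, plus strand), the conjugating enzyme of the same complex and the most abundant G2/M gene, was at 87.2, 88.5 and 101.4 FPKM untreated, 91.5, 89.3 and 99.6 FPKM with TGF-β, 80.5, 83.01 and 102 FPKM with NH4Cl and 91.3, 72.9 and 99.8 FPKM with both. These groups overlapped widely, 4 of 6 pairs were lower, and its difference of −0.08 did not pass (SE 0.047, adjusted p = 0.21 in limma with the block). Without replicate 2 of both treatments, its lowest library, the difference was −0.03.

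Of the kinetochore and checkpoint genes, 1 of 5 passed, beside the 15% lower and 16.1% higher of all genes. CENPF (ENSG00000117724, chr1:214603195-214664588, plus strand), a large kinetochore protein, was at 22.2, 24.9 and 19.8 FPKM untreated, 23.3, 24.2 and 18.3 FPKM with TGF-β, 21.5, 21.8 and 17.9 FPKM with NH4Cl and 19.2, 22.1 and 16.7 FPKM with both. Replicate 3 was the lowest in each group, as for most G1/S genes, and 6 of 6 pairs were lower with NH4Cl. It fell by 0.15 (SE 0.031, adjusted p = 0.00604 in limma with the block). The motor CENPE, the checkpoint kinases BUB1 and TTK, and BUB1B lay between −0.09 and 0.05 and did not pass.

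Of the 4 kinesin and spindle genes, 2 fell and 0 rose in limma with the block, beside 15% and 16.1% of all genes. KIF11 (ENSG00000138160, chr10:92593286-92655395, plus strand), the motor that separates the spindle poles, was at 19.8, 19.3 and 16.9 FPKM untreated, 18.97, 19.2 and 14.4 FPKM with TGF-β, 16.1, 15.1 and 15.9 FPKM with NH4Cl and 15.6, 16.8 and 15.6 FPKM with both. The untreated libraries lay above the NH4Cl libraries without overlap, but replicate 3 with TGF-β was the lowest of all 12. KIF11 fell by 0.17 (SE 0.055, adjusted p = 0.0373 in limma with the block), with 5 of 6 pairs lower. That call held in 9 of 22 settings and was lost without untreated replicate 3 or any library of replicates 1 and 2, at an adjusted p of 0.056 to 0.0967 in limma. KIF23 (ENSG00000137807, chr15:69414246-69448427, plus strand), a motor of the central spindle, was at 12.7, 13.3 and 11.6 FPKM untreated, 13.02, 12.97 and 10.8 FPKM with TGF-β, 11.6, 11.5 and 10.8 FPKM with NH4Cl and 11.1, 11.5 and 10.1 FPKM with both. Replicate 3 was the lowest in each group, as for CENPF. KIF23 was lower in 6 of 6 pairs and fell by 0.14 (SE 0.03, adjusted p = 0.00551 in limma with the block). KIF20A, at 0.04, and the spindle assembly factor TPX2, at −0.06, did not pass.

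The proliferation markers MKI67, TOP2A and BIRC5 did not pass either. MKI67, which encodes the antigen Ki-67, held 21.7 ± 3.14 FPKM untreated, 22.1 ± 3.14 after TGF-β, 21.6 ± 2.31 after NH4Cl and 19.3 ± 2.52 after both (SD, n = 3), a difference of −0.09 with 3 of 6 pairs lower (adjusted p = 0.2 in limma with the block). Topoisomerase TOP2A was at −0.09 and survivin, BIRC5, at −0.06. Both were lower in 5 of 6 pairs.

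TGF-β added to either state moved no member past the threshold. In limma, 0 of 41 genes passed for TGF-β against untreated cells without the block and with it, beside 0% and 0.0081% of all genes. At an unadjusted p under 0.05 there were 0 and 1, beside 103 and 422 of the 12341 genes. The G1/S median was −0.01 and the G2/M median −0.02. For both treatments against NH4Cl, limma again found 0 genes without the block and with it, beside 0% and 0.0081% of all genes, and 0 and 3 at an unadjusted p under 0.05, beside 165 and 879 of all genes. Medians there were −0.04 for G1/S and −0.02 for G2/M.

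The interaction, which asks whether the NH4Cl difference depends on TGF-β, passed in 0 genes in limma without the block and with it, beside 0% of all genes in both. At an unadjusted p under 0.05 there were 0 in both, beside 115 and 537 of all genes. Its estimates ran from −0.15 to 0.06 in the G1/S genes and from −0.18 to 0.12 in the G2/M genes. MKI67, with a difference near 0 in the absence of TGF-β and of −0.19 in its presence, had the lowest estimate and KIF11 the highest. A value that misses the threshold does not show that NH4Cl acts alike in both states.

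**Figure D4:**
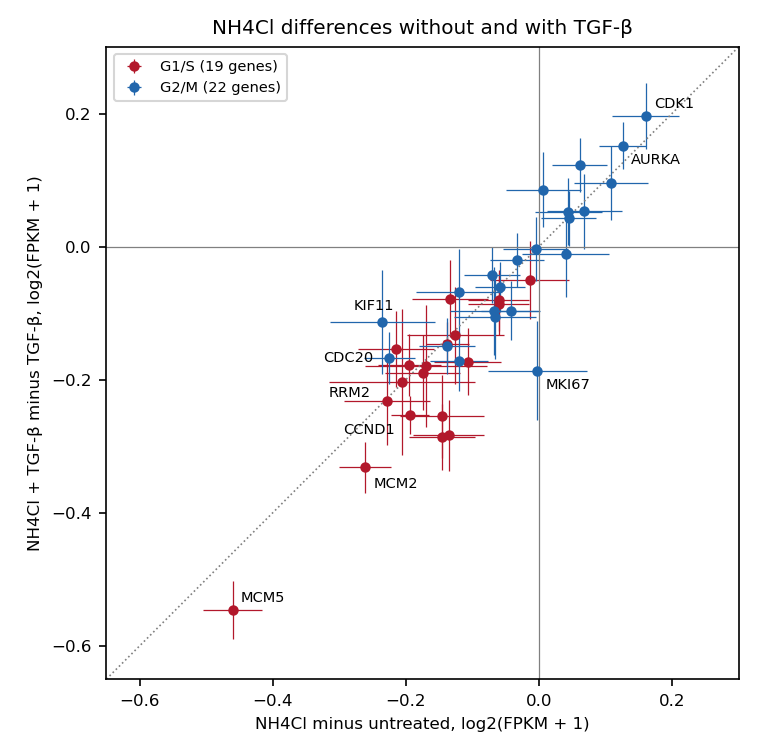
Difference with NH4Cl in the absence (horizontal axis) and in the presence of TGF-β (vertical axis), both in log2(FPKM + 1), for 41 genes with SE bars from the paired model. All 19 G1/S genes lie in the lower left quadrant, and the 22 G2/M genes extend into the upper right.

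A wider list of 117 related cell cycle genes was read from the same fits, and 116 were tested, as PRC1 was under 1 FPKM. In the average over both TGF-β states, 34 were lower and 11 higher in the paired model, beside the 15% and 16.1% of all genes. Without the block limma found 3, all lower, namely PRIM1, ECT2 and TK1, beside 2.4% of all genes lower. Medians differed by role, with no test between roles. Fork and polymerase genes had 16 of 27 lower and the rest not past the threshold, with a median of −0.13, whereas 40 mitotic genes had 3 lower and 3 higher with a median of 0.0001. In replicate 3 the level of all 27 fork and polymerase genes was below replicates 1 and 2, by mean differences of −0.84 to −0.02, and 1 of them passed without the block. Origin recognition and licensing genes had a median of −0.05 and those of nucleotide supply −0.04.

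At the fork, the largest falls were in LIG1, the ligase that joins Okazaki fragments, at −0.29 (SE 0.033, adjusted p = 1.98e-04 in limma with the block), in POLA1, the catalytic subunit of polymerase alpha, at −0.27, and in the primase subunit PRIM2, at −0.26. Lower in 6 of 6 pairs, LIG1 held 11.4 ± 1.69 FPKM untreated and 8.81 ± 1.52 FPKM with NH4Cl (SD, n = 3). Of 12 genes of origin recognition and licensing, 3 fell, ORC1 (−0.30), MCM10 (−0.12) and ORC5 (−0.09), and ORC6 rose (0.12), beside 15% and 16.1% of all genes. In nucleotide supply, thymidine kinase TK1 fell by 0.26. TK1 held 61.3 ± 3.79 FPKM untreated and 49.7 ± 1.55 FPKM with NH4Cl (SD, n = 3) and was lower in 6 of 6 pairs.

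The regulators upstream of S phase moved in both directions, where 15% of all genes were lower and 16.1% higher in the same fit. Of 9 genes of the E2F and RB family, 5 fell, led by RBL1, which encodes p107, at −0.21, the repressor E2F7 at −0.16 and the E2F partner TFDP2 at −0.14. Replicate 3 differed from replicates 1 and 2 by a mean of −0.68 for RBL1, 0.18 for E2F7 and −0.07 for TFDP2. CDK inhibitors, which hold cells in G1, had 4 of 7 higher in limma with the block, and the rest did not pass. CDKN2B, which encodes p15, held 17.02 ± 5.96 FPKM untreated, 16.6 ± 6.56 after TGF-β, 22.5 ± 8.22 after NH4Cl and 23.2 ± 8.33 after both (SD, n = 3). It rose by 0.42 (SE 0.026, adjusted p = 7.79e-06 in limma with the block and adjusted p = 0.353 without it) and was higher in 6 of 6 pairs. Its SDs reflect replicate 3, which was higher than replicates 1 and 2 by 0.81. CDKN1C, for p57, rose by 0.42 and shared that replicate 3 difference at 0.83, and CDKN2D, for p19, rose by 0.28 with 5 of 6 pairs higher and a replicate 3 difference of 0.51. In CDKN2D the rise was largest in the replicate 3 pairs, at 0.51 in the absence and 0.48 in the presence of TGF-β.

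Among the G1 kinases and their partners, cyclin D2 rose while cyclin D1 fell. CCND2 had 14.5 ± 2.99 FPKM untreated and 18.2 ± 1.60 FPKM with NH4Cl (SD, n = 3), was higher in 6 of 6 pairs and rose by 0.37 (SE 0.042, adjusted p = 2.09e-04 in limma with the block). CKS1B rose by 0.17, and SKP2, which marks p27 for degradation, and CDK6 fell by 0.19 and 0.14. WEE1, which restrains CDK1, was the checkpoint gene that fell, at −0.17. Of the activators of mitotic genes, MYBL2 and FOXM1 fell by 0.27 and 0.12, and LIN9, a MuvB subunit, rose by 0.14. Replicate 3 of MYBL2 differed from replicates 1 and 2 by a mean of −0.69. Its replicate 3 pairs gave −0.03 in the absence and −0.26 in the presence of TGF-β. FOXM1 had −0.02 in the absence of TGF-β (adjusted p = 0.83 in limma with the block) and −0.23 in its presence (adjusted p = 0.0214), and the interaction of −0.20 did not pass (SE 0.079, adjusted p = 0.992 in limma with the block). In mitosis CKS2, PTTG1 and HMMR rose by 0.23, 0.13 and 0.10, while ECT2, an activator of cytokinesis, and the condensin subunits SMC2 and SMC4 fell by 0.27, 0.15 and 0.10. SMC4 shares 25.6% of its exon bases with genes on the opposite strand.

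**Figure D5:**
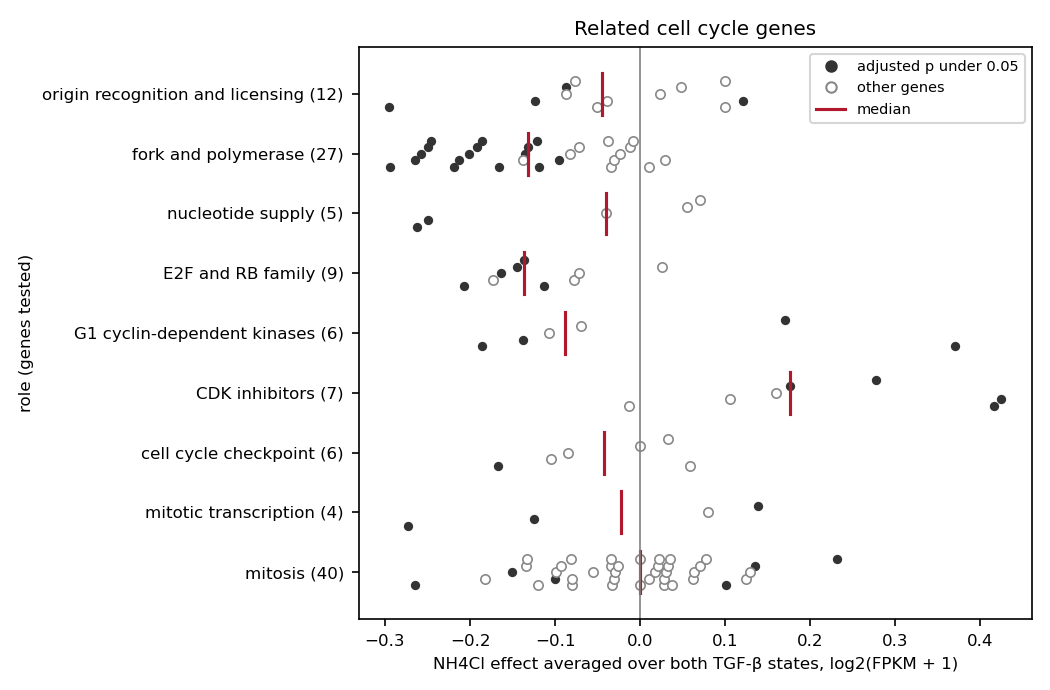
NH4Cl difference averaged over both TGF-β states in log2(FPKM + 1) (horizontal axis) for 116 related genes by role (vertical axis), with filled points for an adjusted p under 0.05 in the paired model and a red bar for the median. Fork and polymerase genes lie mostly below 0 and CDK inhibitors mostly above it.

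Counts of calls depended on the block and on which replicates were used, and the G2/M median was above 0 in replicate 3 alone, while the G1/S median was below 0 in every replicate. With replicates 1 and 2 alone in the paired model, 25 of 41 genes passed in the average over both TGF-β states, 15 of them of G1/S, beside 3206 of all 12341 genes, and the medians were −0.19 for G1/S and −0.07 for G2/M.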

How the data were processed

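RNA sequencing of HCT116 cells in 4 groups of 3 libraries was used, and sample labels gave the group and the replicate number. The deposited values are FPKM for 25733 genes, which the authors computed from reads counted per gene. The submitters' processing notes name Trimmomatic 0.36, STAR 2.5.2b, featureCounts of Subread 1.5.2, GRCh38 and DESeq2, whereas the study's methods name HTSeq as the counter, and which of them made the deposited values is not given in the sources used here. The labels and the methods also name different RNA kits.

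Members and lists were chosen with earlier results of these data known. Genes were matched by symbol, and all 25733 identifiers were found in GENCODE 29. FPKM times exon length and a scaling total per library, 0.964 to 1.03 times its reads on genes, gave whole numbers of reads, within 0.02 reads, for 100.0% of the values.

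The test used log2(FPKM + 1) and the 12341 genes whose mean was at least 1 FPKM. limma 3.58.1 in R 4.3.3 was fitted with an intensity trend over all 12 libraries, first with 4 group means (8 residual degrees of freedom) and then with the replicate number as a block (6). Adjusted p-values are two-sided Benjamini-Hochberg values over all genes tested, with a threshold of 0.05. The contrasts numbered 7. The pairing rests on correlations between same-numbered libraries of deviations from the group means, 6 pairs each. They were 0.349 to 0.431 (replicate 1), 0.446 to 0.533 (replicate 2) and 0.702 to 0.774 (replicate 3). The group means include replicate 3, which differs in every group, so deviations of replicates 1 and 2 can correlate through it. Correlations between libraries of different numbers were not computed, so pairing within replicates 1 and 2 was not tested apart from replicate 3. The scripts were tested on simulated data. Other steps used Python 3.11.15, numpy 2.4.6, pandas 2.3.3 and matplotlib 3.10.9.

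Values in every library are given, in each list, for the 6 genes with the largest NH4Cl difference averaged over both TGF-β states in the paired model, for the most abundant gene and for any gene past the threshold without the block. Related genes are named as the 3 largest rises and falls per role. PRIM1, outside this rule, was named after its values were seen. Alternatives were a pseudocount of 0.1, no filter, a minimum of 5 FPKM, scaling to equal sums or medians, only the groups compared, no trend, a mean in place of the median, subsets of the replicates and each library left out in turn.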

Additional observations from a re-analysis of the deposited data

How the results depend on the processing

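In the average over both TGF-β states, none of the 14 genes given in every library changed direction under the alternatives run. Directions of the other members and of the related genes were not followed under them. No list median with NH4Cl against none changed sign either. The G2/M median of single replicates was nevertheless −0.06, −0.05 and 0.04 in the average over both TGF-β states. Without the block, the counts of genes past the threshold in limma for NH4Cl against untreated cells, both treatments against TGF-β, the average over both TGF-β states and both treatments against untreated cells were 0, 0, 1 and 0. The replicate block made them 9, 16, 19 and 16, and replicates 1 and 2 without a block, chosen after seeing the data, 9, 14, 24 and 13, where the replicate 3 difference leaves the error in either way. In the average without the block, no filter gave 0, and leaving out 1 library gave 0 to 3: 3 without TGF-β replicate 3, 1 without untreated replicate 3 or replicate 1 of both treatments, and 0 without any other. With the block, no filter gave 5 and 9 in the first contrasts, where more genes are tested, and no intensity trend gave 5 in the first. Replicates 2 and 3 alone gave 1, 3, 12 and 4 and replicates 1 and 3 alone 1, 5, 9 and 5, both chosen after seeing the data and with fewer libraries. Leaving out 1 library with the block gave 4 to 14 genes in the first contrast (4 or 5 without any untreated library or NH4Cl replicate 2, 14 without NH4Cl replicate 3), 6 to 15 in the second (6 to 9 without replicate 1 or 2 of TGF-β or of both treatments), 7 to 12 in the last (7 to 9 without untreated replicate 2 or 3 or without replicate 1 or 2 of both treatments) and 17 to 22 in the average. The G1/S median ran from −0.20 (without NH4Cl replicate 3) to −0.11 (without NH4Cl replicate 2) with NH4Cl against untreated cells and from −0.22 to −0.13 with both treatments against TGF-β (without TGF-β replicate 3 and 2), and was −0.14 in the average with replicates 1 and 3 alone. With 1 library left out, the G2/M median in the average ran from −0.06 (without NH4Cl replicate 3) to −0.02 (without NH4Cl replicate 1). Under the other alternatives it ran from −0.07 to −0.01. In the first and second contrasts the G2/M median came as near to 0 as −0.0021 and −0.0012 (without replicate 2 of NH4Cl and of TGF-β). The 12 G2/M genes lower in the 4 pairs of replicates 1 and 2 were 3 in all 6 pairs. The cause of these changes was not tested further. Over 126 values of the 14 genes given in every library, 10 calls were lost and 1 gained, and with 1 library left out 9 of 168 were lost and 3 gained. Lost calls were of KIF11, RRM2, CDK1, CENPF and KIF23, and those gained were of PCNA. CCNE2, with as few as 18 reads, was under the minimum mean of 1 FPKM and was not tested in the main fits.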
